A study of Mus musculus with 63 samples.

Results

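The effect of losing CDK19 while CDK8 was kept was examined in small intestinal organoids 7 days after 4-hydroxytamoxifen (4-OHT). The comparison comprised 3 libraries of Cdk8fl/fl/Cdk19-/- organoids and 3 libraries of C57BL/6 organoids, 6 of the 63 samples of the series, chosen by genotype, treatment and day, and genes of chromosomes X and Y were left out. Cdk8fl/fl/Cdk19-/- organoids carry a germline loss of Cdk19 and floxed Cdk8 alleles but no Cre, so 4-OHT leaves their Cdk8 alleles in place. Both groups are labelled as strain C57BL/6, both received 100 nM 4-OHT for 24 hours, and both grew in Matrigel with Noggin, R-spondin and EGF. The series also holds VillinCreERT2 organoids, in which the Villin promoter drives a 4-OHT-activated Cre in the epithelium, CDK8iIEC-KO organoids (VillinCreERT2 with Cdk8fl/fl) and CDK8iIEC-KO/Cdk19-/- organoids (VillinCreERT2 with Cdk8fl/fl and Cdk19-/-), each with 3 libraries at the same day and with the same 4-OHT. It further holds a time course of another CDK8iIEC-KO/Cdk19-/- line, whose 12 EtOH-treated libraries from days 3, 5, 7 and 10 lacked CDK19 and had not been induced to lose CDK8. By their column names, all 3 libraries of a genotype came from 1 organoid line, so genotype and line cannot be told apart, and every p-value measures the spread between cultures of a line and not between mice.

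CDK8 and CDK19 are paralogous cyclin-dependent kinases. Either of them can occupy the kinase module of Mediator, together with cyclin C, MED12 and MED13, and this module reversibly binds the core complex that links enhancer-bound transcription factors to RNA polymerase II. The intestinal epithelium renews from LGR5+ stem cells at the crypt base into absorptive enterocytes and into secretory Paneth, goblet, enteroendocrine and tuft cells, and the comparison asks how far CDK19 loss by itself moves the genes of these states.

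Library totals lay between 15485959 and 17634381 counts in C57BL/6 organoids and between 17375313 and 17718126 in Cdk8fl/fl/Cdk19-/- organoids. They were larger in VillinCreERT2 (20424462 to 21439044) and CDK8iIEC-KO organoids (21133160 to 21449826), and between 17833336 and 18440256 in CDK8iIEC-KO/Cdk19-/- organoids. The columns of VillinCreERT2 and CDK8iIEC-KO libraries are also named in another style than those of the other day-7 groups. Levels are given as CPM, the count of a gene scaled to a common library size, in the order of replicates 1 to 3. They compare a gene between libraries and not 1 gene with another. In a principal component analysis of the 15 day-7 libraries, the first component held 53.2% of the variance. C57BL/6 libraries lay at 29.9 to 31.4 on it, Cdk8fl/fl/Cdk19-/- libraries at 7.06 to 8.98, and all 9 libraries of the 3 groups with VillinCreERT2 between -17.6 and -9.03. The 9 epithelial markers, Epcam, Cdh1 and Vil1 among them, summed to 9143 to 9462 CPM in Cdk8fl/fl/Cdk19-/- and 8432 to 8669 CPM in C57BL/6 libraries. Markers of immune cells (10 genes) summed to 6.03 to 7.30 and 6.59 to 7.53 CPM, and those of mesenchyme (11 genes) to 10.6 to 12 and 10.6 to 11.2 CPM, with Cd3g, Igkc, Col3a1, Dcn, Des, Lum and Thy1 at 0 in both groups. The 8 pancreatic acinar markers summed to 21.6 to 24.2 and 31.6 to 48.7 CPM, with the chymotrypsinogen gene Ctrb1 lower (log2 fold change -1.05 ± 0.22 (SE), adjusted p = 0.00695, edgeR) and 5 of the 8 at 0, and the 6 measured markers of endothelium and glia summed to under 1 CPM in both groups. Among 3 tested genes of a list of differences between C57BL/6 substrains, Wdfy1 was lower (38.3, 38.9 and 38.8 against 64.4, 59.9 and 62.4 CPM, log2 fold change -0.69 ± 0.07 (SE), adjusted p = 3.21e-08), where 2.31% of all genes were. The other 2 had positive values and were not called, and Nnt of the same list was at 0 in both groups. Wdfy1 was higher against VillinCreERT2 organoids (1.57 on the log2 scale, adjusted p = 2.82e-14). The part of these differences in the results was not tested. In bulk samples, fewer cells of a type and less RNA per cell cannot be told apart.

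Cdk19 itself was at 25.4, 26.7 and 26.7 CPM in Cdk8fl/fl/Cdk19-/- and 35.4, 30.2 and 29.3 CPM in C57BL/6 libraries (log2 fold change -0.27 ± 0.07 (SE), adjusted p = 0.0127, edgeR quasi-likelihood test), below the 1.5-fold cutoff. Reads were counted over the whole gene, so these counts do not check the deletion. Cdk8, the remaining kinase, was at 70.7, 63.9 and 65.2 against 63.9, 55.1 and 55.4 CPM (log2 fold change 0.20 ± 0.07 (SE), adjusted p = 0.0399), a difference within the cutoff whose direction was the other way against VillinCreERT2 organoids (-0.22 on the log2 scale, adjusted p = 0.00574). None of the 5 tested members of the kinase module passed both cutoffs, where 5.17% of all genes did. Among the others, the log2 fold change of Med13 was 0.24 (adjusted p = 0.0277), that of the cyclin gene Ccnc 0.20 (adjusted p = 0.0893) and that of Med13l -0.10 (adjusted p = 0.554). The core of Mediator and the SWI/SNF chromatin remodeling complex were each measured by 24 genes. Of these, 0 passed both cutoffs, which is near the 5.17% of all genes that did. The median log2 fold changes were 0.02 and 0.01 against -0.0017 over all genes tested. Of the same genes, 1 of the Mediator core and 2 of SWI/SNF had an adjusted p under 0.05.

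Of 14652 genes tested, 757 passed both cutoffs (adjusted p under 0.05 by edgeR's quasi-likelihood test and a fold change over 1.5), which is 5.17% of the genes. They comprised 419 higher (2.86%) and 338 lower (2.31%) in Cdk8fl/fl/Cdk19-/- organoids. The log2 fold change exceeded 1 in size for 433 of them and 2 for 179, and 319 averaged under 50 counts in the higher group. The libraries of both groups did not overlap in 748 of the 757 genes (98.8%), so a lack of overlap sets no called gene apart from the others. How many of the genes not called lacked overlap is not given here. As a control, VillinCreERT2 organoids differ from Cdk8fl/fl/Cdk19-/- organoids also in line, in an activated Cre and in library totals. These differences cannot be told apart from CDK19 loss. Against VillinCreERT2 organoids, 2696 genes (18.4%) differed in the same Cdk8fl/fl/Cdk19-/- libraries, 1582 of them higher (10.8%) and 1114 lower (7.6%). The largest group of the 757 genes did not pass there. Of the 757 genes, 111 passed in the same direction against both controls, 206 passed in opposite directions and 440 did not pass against VillinCreERT2 organoids. In 628 of the 757 (83.0%), the mean level of VillinCreERT2 organoids lay nearer to Cdk8fl/fl/Cdk19-/- than to C57BL/6 organoids on the scale log2(CPM + 0.1). These genes were chosen for a difference between the latter groups. The share over all genes tested was not computed, so nothing is concluded from 83.0%.

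**Figure D1:**
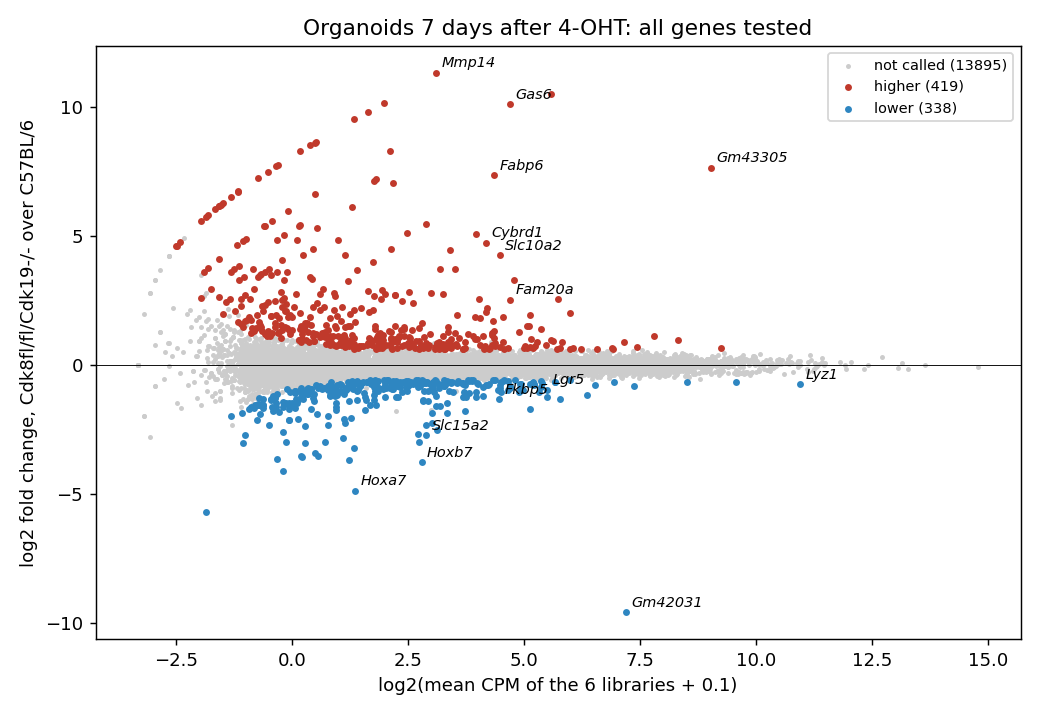
Log2 fold change of Cdk8fl/fl/Cdk19-/- over C57BL/6 organoids (vertical axis) for each of the 14652 genes tested against the log2 of its mean CPM plus 0.1 over the 6 libraries (horizontal axis), with the 419 genes called higher in red, the 338 called lower in blue and all others in grey. Rises reach further from 0 than falls, apart from Gm42031, and the fitted values of genes with 0 counts in C57BL/6 organoids, such as Mmp14, depend on the prior count of the fit.

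Among genes with established names, the largest rises were those of genes that the C57BL/6 line hardly expressed. Of the 757 genes, 79 had at most 3 counts in every C57BL/6 library and all 79 were therefore higher, while 6 had at most 3 counts in every Cdk8fl/fl/Cdk19-/- library (Serpinb9b, Hoxb3, Zfp78, Adssl1, Sp9 and Cd59b). Against VillinCreERT2 organoids, 8 of the 79 were higher, 28 were lower and 43 did not pass, and 63 of the 79 had over 3 counts in all 9 libraries of the 3 groups with VillinCreERT2. The bases before the start sites of 3 of these genes with different roles are shown, because the C57BL/6 line had at most 2 counts of them in any library, while the other day-7 lines expressed them. They are the matrix metalloprotease gene Mmp14 (chr14:54431348-54431597, + strand), the gene of the TAM receptor ligand Gas6 (chr8:13494536-13494785, - strand) and Pkd2, which encodes the cation channel polycystin-2 (chr5:104459207-104459456, + strand). Sequences are from RefSeq, build GRCm38.p6, over 250 bases before the start, in the direction of the gene, with each CG dinucleotide in capitals.
Mmp14: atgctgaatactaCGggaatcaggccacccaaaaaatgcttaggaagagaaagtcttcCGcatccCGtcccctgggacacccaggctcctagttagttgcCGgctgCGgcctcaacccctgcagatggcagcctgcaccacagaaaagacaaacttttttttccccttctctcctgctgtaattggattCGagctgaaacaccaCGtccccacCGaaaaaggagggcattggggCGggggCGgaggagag
Gas6: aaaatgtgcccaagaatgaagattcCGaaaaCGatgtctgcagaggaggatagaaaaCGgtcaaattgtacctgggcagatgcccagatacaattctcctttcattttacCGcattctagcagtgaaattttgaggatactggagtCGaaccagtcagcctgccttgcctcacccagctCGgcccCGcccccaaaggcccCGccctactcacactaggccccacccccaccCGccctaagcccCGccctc
Pkd2: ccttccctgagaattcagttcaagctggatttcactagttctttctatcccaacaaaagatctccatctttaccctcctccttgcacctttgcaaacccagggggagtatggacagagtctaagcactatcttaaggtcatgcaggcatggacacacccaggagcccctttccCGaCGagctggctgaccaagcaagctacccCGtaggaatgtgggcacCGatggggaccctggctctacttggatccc
The windows of Mmp14 and Gas6 each held 10 CG and that of Pkd2 4. CG reads the same on both strands, and it occurred in 92.1% of the 32851 windows of this length in the table, with a median of 6. Of those windows, 37.8% held at least 10 and 62.2% at least 4.

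Mmp14 had 0 counts in all 3 C57BL/6 libraries and 16.6, 19.9 and 14.6 CPM in Cdk8fl/fl/Cdk19-/- libraries, at least 281-fold higher against a floor of 3 counts over the group (adjusted p = 1.46e-07, edgeR). VillinCreERT2 libraries held it at 23.2, 16.1 and 26 CPM, and both groups overlapped. In the EtOH-treated libraries of the time course, which were normalized in another table, it ranged from 0 to 1.01 CPM. Gas6 was at 0, 0.116 and 0 CPM in C57BL/6 and 50.1, 51.7 and 53.6 CPM in Cdk8fl/fl/Cdk19-/- libraries, a ratio of 1281-fold (95% counting interval 354 to 10582) with adjusted p = 5.59e-15. Its level in VillinCreERT2 libraries was 53.8, 55.6 and 42.4 CPM, and in the EtOH-treated libraries 0 to 0.103 CPM. The Cdk19-/- line of the day-7 comparison thus expressed Gas6 and that of the time course hardly did. Pkd2 had 0 counts in C57BL/6 libraries against 6.85, 5.73 and 5.46 CPM, at least 99.1-fold, and was at 0 to 0.101 CPM in the EtOH-treated libraries. The zinc finger gene Zfp783 also had 0 counts in C57BL/6 libraries against 7.98, 8.54 and 6.5 CPM, at least 126-fold, and 0 to 0.156 CPM in the EtOH-treated ones. Fut4, a fucosyltransferase gene, was at 0.0652, 0.0579 and 0 against 7.38, 6.45 and 5.81 CPM, a ratio of 162-fold (95% counting interval 44.4 to 1341). Unlike the others it was lower than in VillinCreERT2 organoids (-1.00 on the log2 scale, adjusted p = 5.18e-08). It ranged from 0 to 0.0519 CPM in the EtOH-treated libraries. Gas6, Pkd2, Zfp783 and Fut4 thus stayed under 0.2 CPM in every library of the C57BL/6 line and of the EtOH-treated Cdk19-/- line, and Mmp14 reached 1.01 CPM in the latter.

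Arl14ep, Stxbp6 and Igsf9b were expressed in every other line. Arl14ep was at 0.456, 0.463 and 0.0594 CPM in C57BL/6 and 14.4, 13.8 and 14.9 CPM in Cdk8fl/fl/Cdk19-/- libraries (log2 fold change 5.44 ± 0.24 (SE), adjusted p = 1.75e-15), with 16.7, 13.4 and 14.9 CPM in VillinCreERT2 libraries and 9.61 to 14.4 CPM in the EtOH-treated ones. Stxbp6, a syntaxin-binding protein gene, was at 0.0652, 0.0579 and 0.0594 against 8.7, 9.2 and 8.63 CPM, a ratio of 146-fold (95% counting interval 49.5 to 709), and reached 10.4 to 20.2 CPM in the EtOH-treated libraries. Igsf9b had 0 counts in C57BL/6 libraries against 4.41, 4.6 and 5.64 CPM, at least 80.6-fold, with 5.83 to 9.92 CPM in the EtOH-treated libraries. For these 3 genes, the C57BL/6 line stood apart from both Cdk19-/- lines as well as from the VillinCreERT2 line. Of the 79 genes, 54 stayed under 0.2 CPM in all 12 EtOH-treated libraries and 8 were over 1 CPM in all of them. Rps4l, which resembles a ribosomal protein gene and may share reads with its relatives, was at 0, 0 and 0.0594 against 7.56, 8.96 and 8.63 CPM, a ratio of 415-fold (95% counting interval 74 to 16416). Smoc1, a matrix protein gene, was at 0, 0.174 and 0 against 3.99, 6.21 and 3.85 CPM, a ratio of 77-fold (95% counting interval 26 to 376). Both genes lay above every C57BL/6 library in each Cdk8fl/fl/Cdk19-/- library. All C57BL/6 counts of Gas6 and Smoc1 came from replicate 2 and those of Rps4l from replicate 3. Without that library the C57BL/6 group was at 0 and the fitted log2 fold changes, which then depend on the prior count, went from 10.10 to 12.91 for Gas6, from 6.12 to 9.45 for Smoc1 and from 8.28 to 10.29 for Rps4l. Among the 106 called genes with predicted names, Gm42047 was at 0.0652, 0.116 and 0 against 106, 77.4 and 102 CPM and Gm43305 at 5.93, 4.63 and 5.23 against 1125, 941 and 1047 CPM. Without C57BL/6 replicate 2, the fitted log2 fold change of Gm42047 went from 10.47 to 11.30.

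**Figure D2:**
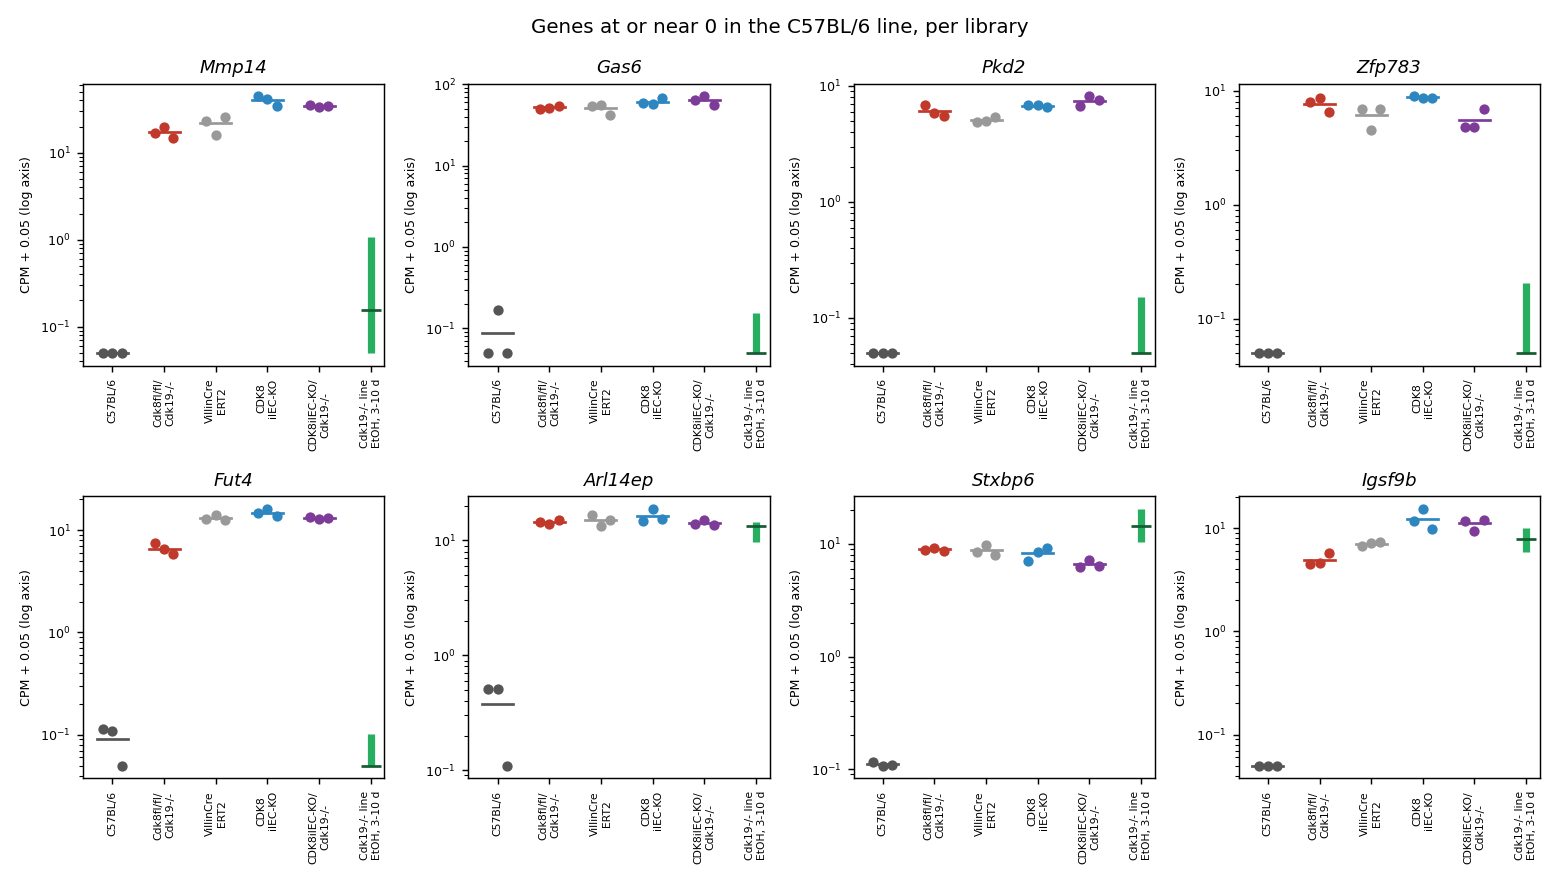
CPM plus 0.05 (vertical log axes) of 8 genes at or near 0 in C57BL/6 organoids, with 3 points and their mean for each of the 5 day-7 groups, and for the EtOH-treated line of the time course a bar from the lowest to the highest of its 12 libraries with the median marked. The 4 day-7 groups other than C57BL/6 lie above it in each panel, and the EtOH-treated line lies near C57BL/6 for Mmp14, Gas6, Pkd2, Zfp783 and Fut4 and near the other groups for Arl14ep, Stxbp6 and Igsf9b.

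Hox genes led the falls among genes with established names. They are the transcription factors that encode position along the body axis. Of 39 Hox genes, 12 were tested, 7 were lower and 0 higher, where 2.31% and 2.86% of all genes were, with a median log2 fold change of -1.84 against -0.0017 over all genes. Hoxa7 was at 0.0596, 0.119 and 0.288 CPM in Cdk8fl/fl/Cdk19-/- and 3.97, 4.92 and 5.52 CPM in C57BL/6 libraries (log2 fold change -4.88 ± 0.37 (SE), adjusted p = 1.41e-10). Hoxb7 was at 0.774, 0.538 and 1.44 against 12.6, 12 and 13.6 CPM (log2 fold change -3.78 ± 0.39 (SE), adjusted p = 9.73e-06), and Hoxb6 at 1.43, 0.956 and 2.01 against 12.8, 11.2 and 11.2 CPM (log2 fold change -2.99 ± 0.37 (SE), adjusted p = 5.91e-05). All 3 were low but detected in each Cdk8fl/fl/Cdk19-/- library, and without replicate 3 of that group the log2 fold change of Hoxa7 was -5.65. Hoxb5 (-3.21), Hoxb3 (-4.10, and -5.32 without Cdk8fl/fl/Cdk19-/- replicate 3), Hoxb4 (-1.77) and Hoxa5 (-1.90) were lower too, on the log2 scale, with adjusted p-values from 1.08e-06 to 1.83e-04. Hoxb8 and Hoxb9, at log2 fold changes of -1.79 and -1.75, did not pass (adjusted p = 0.0698 and 0.094), and Hoxa3 and Hoxa4 had values of -0.22 and -0.27. The lower Hoxb genes are neighbors, from Hoxb7 to Hoxb3 on chromosome 11 between positions 96286623 and 96347930 (GRCm38, GENCODE vM21). In VillinCreERT2 libraries, Hoxb6 was at 2.04, 2.55 and 0.768 and Hoxa7 at 0.243, 0.197 and 0.358 CPM, which overlapped Cdk8fl/fl/Cdk19-/- libraries. Against this control 2 of the 12 were lower, where 7.6% of all genes were, Hoxa4 (-0.63 on the log2 scale, adjusted p = 0.033) and Hoxa5 (-1.77, adjusted p = 7.41e-05), and of these Hoxa5 passed against both lines.

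Outside the Hox genes, Slc15a2, which encodes the proton-coupled peptide transporter PEPT2, was at 1.91, 1.61 and 2.19 CPM in Cdk8fl/fl/Cdk19-/- and 15.1, 10.8 and 12.4 CPM in C57BL/6 libraries (log2 fold change -2.73 ± 0.16 (SE), adjusted p = 6.85e-12). Plcd3, a phospholipase C gene, was at 3.1, 2.15 and 2.3 against 14.3, 15.1 and 14.6 CPM (log2 fold change -2.54 ± 0.17 (SE), adjusted p = 1.17e-11). The ephrin receptor gene Epha7 was at 0.298, 0.717 and 0.46 against 3.45, 4.00 and 3.27 CPM (log2 fold change -2.85 ± 0.34 (SE), adjusted p = 8.73e-07), and the transcription factor gene Dmrta2 at 0.417, 0.239 and 0.288 against 4.82, 4.29 and 3.45 CPM (log2 fold change -3.70 ± 0.30 (SE), adjusted p = 5.48e-10). Plcd3, Epha7 and Dmrta2 did not pass against VillinCreERT2 organoids, with adjusted p-values of 0.506, 0.836 and 0.399. The remaining falls among the 12 largest were Khdc1a (-2.35 on the log2 scale), the neurofilament gene Nefh (-2.25), Zcwpw1, a histone methylation reader (-2.09), and Wtip (-1.87). Khdc1a and Nefh were higher, not lower, against VillinCreERT2 organoids (log2 fold changes 3.33 and 1.62, adjusted p = 6.95e-09 and 0.00309). Gm42031, a predicted gene, was at 0.476, 0.239 and 0.403 against 289, 293 and 295 CPM, and was under 1 CPM in VillinCreERT2 and CDK8iIEC-KO libraries but at 20.5, 27.9 and 28 CPM in CDK8iIEC-KO/Cdk19-/- libraries. The predicted gene 1700007E05Rik was at 1.55, 1.85 and 1.78 against 13.5, 10.4 and 9.86 CPM.

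Lgr5 was lower than in C57BL/6 organoids. Of 21 stem cell markers tested, 2 were lower and 1 higher, where 2.31% and 2.86% of all genes were, and the median log2 fold change was -0.22. Lgr5, the receptor for R-spondins that marks crypt base stem cells, was at 27.7, 29.2 and 34.2 CPM against 60.2, 56.2 and 61.9 CPM (log2 fold change -0.97 ± 0.09 (SE), adjusted p = 3.82e-08). Olfm4, a secreted glycoprotein of stem cells, was at 606, 523 and 639.9 against 923, 908 and 954 CPM (log2 fold change -0.65 ± 0.16 (SE), adjusted p = 0.017), and this call was lost without C57BL/6 replicate 3 (adjusted p = 0.0654) or without Cdk8fl/fl/Cdk19-/- replicate 2 (adjusted p = 0.0596). Igfbp4 was higher, at 6.37, 7.82 and 10.6 against 0.261, 0.405 and 0.416 CPM (log2 fold change 4.49 ± 0.28 (SE), adjusted p = 2.10e-11), with 9.59, 8.4 and 9.67 CPM in VillinCreERT2 libraries. Ascl2, a transcription factor of stem cells, did not pass the fold cutoff (-0.51 on the log2 scale, adjusted p = 0.0114). Against VillinCreERT2 organoids, Lgr5 did not pass (0.09, adjusted p = 0.437), while Olfm4 was lower there too (-0.73, adjusted p = 0.00255).

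Of 20 Paneth cell markers, 3 were lower and 1 higher, where 2.31% and 2.86% of all genes were, with a median of -0.23 on the log2 scale. Lyz1, the lysozyme of Paneth granules, was at 1447, 1510 and 1482 against 2288, 2447 and 2713 CPM (log2 fold change -0.75 ± 0.06 (SE), adjusted p = 2.48e-10). The alpha-defensin gene Defa30 was at 275, 294 and 274 against 396, 431 and 523 CPM (log2 fold change -0.68 ± 0.09 (SE), adjusted p = 1.15e-05), and reads of this family may be shared between its members. Without C57BL/6 replicate 3 its fold change fell below the cutoff, at -0.56 on the log2 scale. Pnliprp2, a lipase gene, had a log2 fold change of -0.66 and Copz2 one of 1.20, the latter lost without C57BL/6 replicate 3 or Cdk8fl/fl/Cdk19-/- replicate 3 (adjusted p = 0.0501 and 0.0869). The direction of Lyz1 depended on the control. It was at 607, 623 and 638 CPM in VillinCreERT2 libraries, so that Cdk8fl/fl/Cdk19-/- libraries lay between the controls, and against VillinCreERT2 organoids 13 of the 20 markers were higher and 1 lower, where 10.8% and 7.6% of all genes were, with a median of 0.93. Of 17 goblet cell markers, Galnt12, which starts mucin-type glycosylation, was lower (27.5, 27.9 and 26.8 against 45.9, 46.9 and 48.9 CPM, log2 fold change -0.79 ± 0.07 (SE), adjusted p = 4.81e-09) and 0 were higher. Muc2, the main mucin, did not pass (0.28 on the log2 scale, adjusted p = 0.132). Of 15 tuft cell markers, the interleukin receptor gene Il17rb was higher (log2 fold change 0.61, adjusted p = 0.00662) and 0 were lower, although the median was -0.32. Without C57BL/6 replicate 2, Il17rb fell below the fold cutoff, at 0.56.

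Enteroendocrine genes moved in both directions. Of 23 tested, 6 were higher and 5 lower, where 2.86% and 2.31% of all genes were, and the median log2 fold change was 0.06. Gcg, the precursor of GLP-1, was at 44.8, 67.4 and 54 against 16.5, 15.1 and 12.6 CPM (log2 fold change 1.91 ± 0.21 (SE), adjusted p = 9.84e-05), and Sst, somatostatin, at 5.6, 7.35 and 7.65 against 0.586, 1.33 and 1.07 CPM (log2 fold change 2.76 ± 0.20 (SE), adjusted p = 8.09e-11). The secretogranin gene Scg2 was at 4.53, 5.97 and 5.52 against 0.652, 0.811 and 0.713 CPM (log2 fold change 2.86 ± 0.24 (SE), adjusted p = 1.27e-09). Each was higher. Ghrl (1.26, ghrelin), Scg3 (1.49) and Pyy (2.14, peptide YY) were higher on the log2 scale, and Pyy lost its call without C57BL/6 replicate 3 (adjusted p = 0.0606). Neurog3, which starts enteroendocrine fate, was at 4.65, 5.26 and 5.29 against 7.1, 7.7 and 8.73 CPM (log2 fold change -0.63 ± 0.14 (SE), adjusted p = 0.00173), and Pax4 at 0.834, 1.37 and 1.21 against 2.67, 2.43 and 2.73 CPM (log2 fold change -1.19 ± 0.24 (SE), adjusted p = 7.64e-04). Fev (-0.75), Rfx6 (-0.63) and Tph1 (-0.75), the enzyme of serotonin synthesis, were lower as well. Neurog3 fell below the fold cutoff without C57BL/6 replicate 3 or Cdk8fl/fl/Cdk19-/- replicate 1 (-0.55 and -0.57), and Rfx6 kept its call neither without C57BL/6 replicate 1 (-0.58) or 3 (adjusted p = 0.0688) nor without Cdk8fl/fl/Cdk19-/- replicate 1 (0.0723) or 3 (0.0574). The fitted change of all 11 genes had the other sign against VillinCreERT2 organoids, where Ghrl, Pyy, Sst and Scg2 passed as lower and Pax4, Tph1 and Rfx6 as higher. Sst was at 17.8, 16.8 and 17.9 CPM and Neurog3 at 3.45, 3.29 and 4.04 CPM in VillinCreERT2 libraries, so Cdk8fl/fl/Cdk19-/- libraries lay between the control lines. Atoh1, the master regulator of secretory fate, was at 20.5, 24.7 and 21.7 against 23.8, 27.2 and 24.4 CPM and did not pass (log2 fold change -0.17, adjusted p = 0.206).

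The called genes that mark regions of the small intestine were all higher in Cdk8fl/fl/Cdk19-/- organoids, those of the distal as well as of the proximal list. Of 14 distal genes, 5 were higher and 0 lower, where 2.86% and 2.31% of all genes were, and the median log2 fold change was 0.48. Fabp6, the ileal bile acid-binding protein, was at 36.7, 34.1 and 50.4 against 0.195, 0.463 and 0.0594 CPM (log2 fold change 7.34 ± 1.13 (SE), adjusted p = 0.00134), and did not pass with limma-voom (adjusted p = 0.104). Without C57BL/6 replicate 2 its log2 fold change was 8.27. Slc10a2, the apical bile acid transporter of the ileum, was at 36.3, 43.1 and 46.6 against 2.54, 2.14 and 2.02 CPM (log2 fold change 4.24 ± 0.55 (SE), adjusted p = 4.00e-04). Tmigd1 was at 17, 17.9 and 14.7 against 2.28, 3.07 and 2.08 CPM (log2 fold change 2.73 ± 0.46 (SE), adjusted p = 0.00246) and Cubn, the receptor for intrinsic factor and vitamin B12, at 5.54, 4.78 and 4.54 against 0.847, 1.22 and 1.54 CPM (log2 fold change 2.02 ± 0.37 (SE), adjusted p = 0.00144). The levels of Fabp6 in C57BL/6 libraries were near 0, those of the other 3 were not. The fifth, Guca2a, had a log2 fold change of 0.64 and lost its call without C57BL/6 replicate 1 or 3 or without Cdk8fl/fl/Cdk19-/- replicate 2 (adjusted p = 0.0657, 0.057 and 0.0679). The ileal hormone gene Fgf15, induced by bile acids, was at 1.43, 0.956 and 1.55 against 0.456, 0.579 and 1.13 CPM and did not pass (adjusted p = 0.136).

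Of 13 proximal genes, 2 were higher and 0 lower, against the same shares of all genes, with a median of 0.34. Both handle iron in the duodenum: the ferric reductase gene Cybrd1 was at 42.2, 32.5 and 29.8 against 1.76, 1.22 and 1.01 CPM (log2 fold change 4.72 ± 0.38 (SE), adjusted p = 8.66e-06), and the iron exporter gene Slc40a1, ferroportin, at 30.1, 28.3 and 33.2 against 9.25, 8.8 and 10.6 CPM (log2 fold change 1.68 ± 0.18 (SE), adjusted p = 1.80e-05). Gata4, the transcription factor of the proximal intestine, was at 183, 183 and 187 against 190.4, 205 and 197 CPM and did not pass (adjusted p = 0.296). VillinCreERT2 libraries held still more of these genes: Fabp6 was at 216, 313 and 114 CPM and Cybrd1 between 114 and 205 CPM there, above every Cdk8fl/fl/Cdk19-/- library, and Slc10a2 at 75.3, 113 and 35.4 CPM, which overlapped them. Against VillinCreERT2 organoids, 4 of the 14 distal genes and 4 of the 13 proximal genes were lower in Cdk8fl/fl/Cdk19-/- organoids, where 7.6% of all genes were, and 0 distal genes and 1 proximal gene, Fabp1, were higher, where 10.8% were. The segment of the intestine from which each line was made was not given in the sources used here. None of 25 enterocyte genes passed both cutoffs (median 0.10), where 5.17% of all genes did, and 4 of the 25 had an adjusted p under 0.05.

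**Figure D3:**
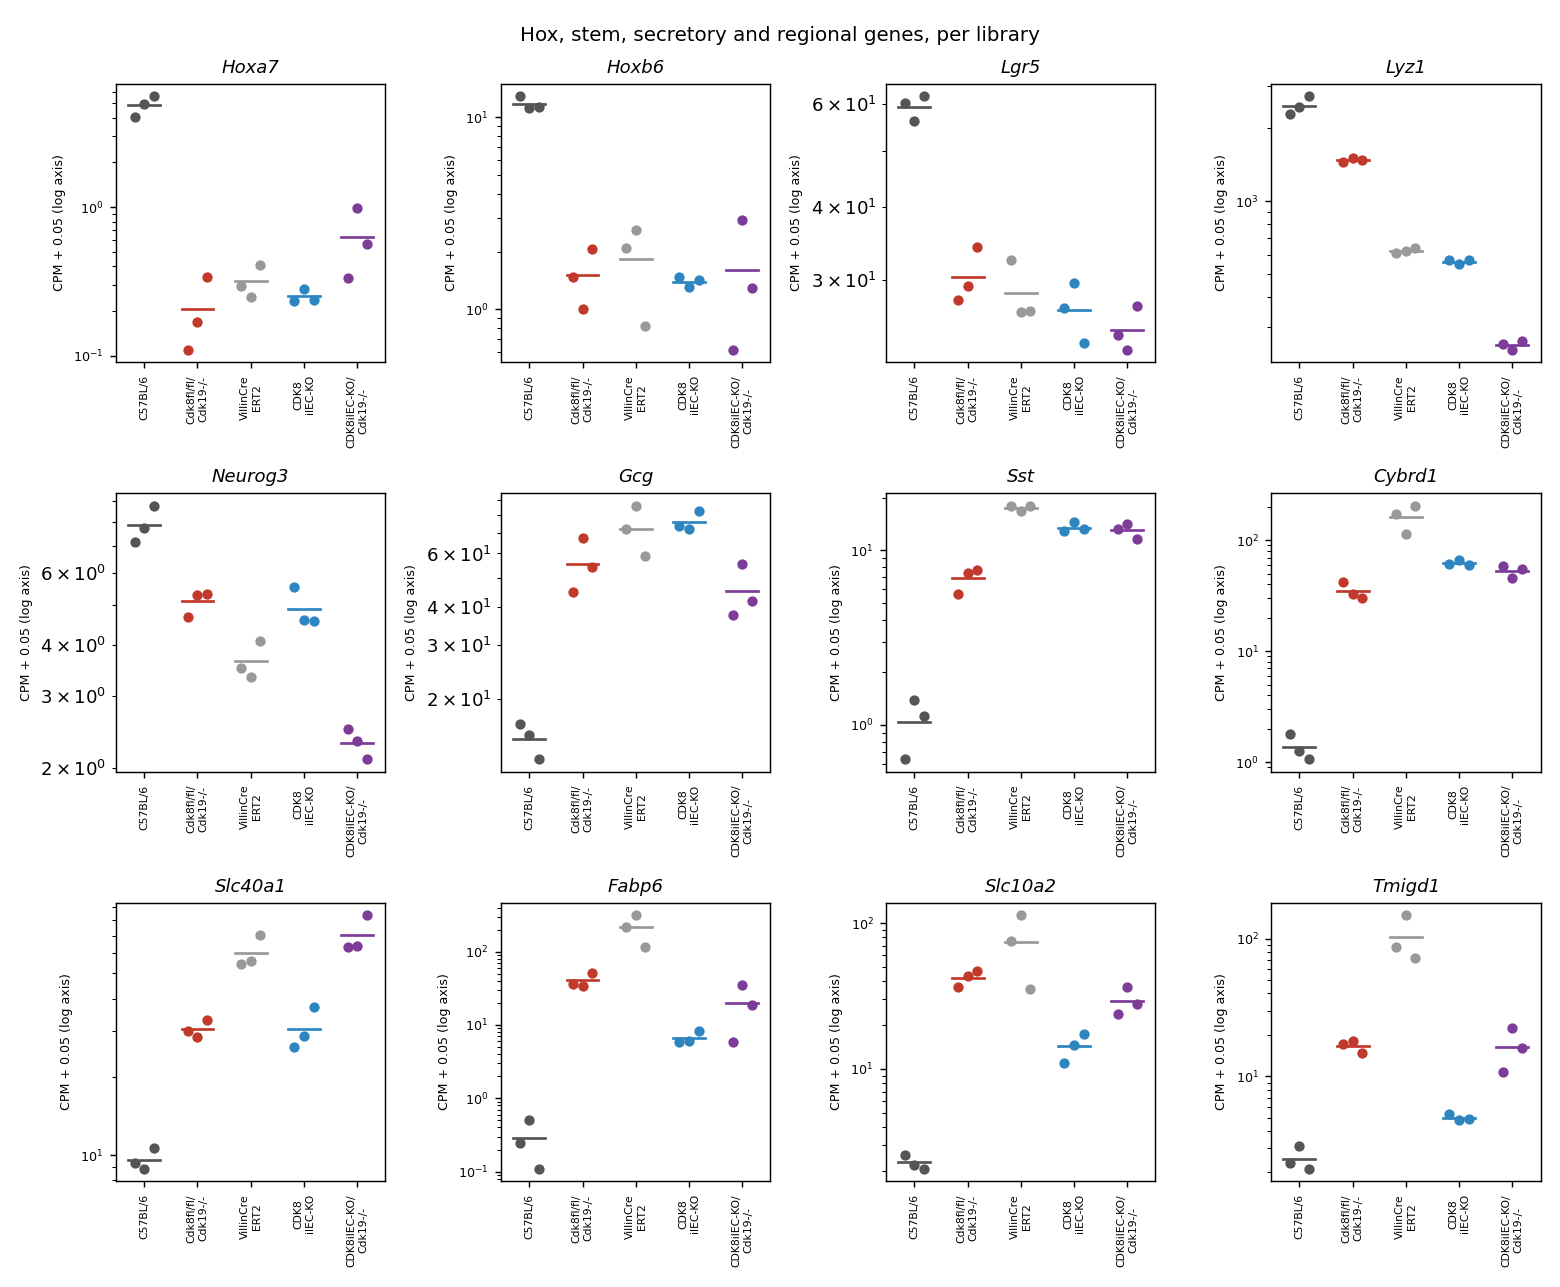
CPM plus 0.05 (vertical log axes) of 12 Hox, stem, secretory and regional genes in the 5 day-7 groups, with 3 points and their mean for each group. Cdk8fl/fl/Cdk19-/- organoids lie below C57BL/6 organoids for Hoxa7, Hoxb6, Lgr5, Lyz1 and Neurog3 and above them for the other 7, and the means of VillinCreERT2 organoids lie beyond them on the far side from C57BL/6 in every panel except Hoxa7 and Hoxb6.

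Both called genes of the Notch list and all called genes of the Wnt list were lower, where 2.31% of all genes were, and of these Fzd3 alone passed against VillinCreERT2 organoids. Of 12 genes of the Notch pathway and secretory fate, Lfng, which modifies Notch receptors, and the ligand gene Jag2 were lower (log2 fold change -0.70 ± 0.12 (SE), adjusted p = 1.62e-04, and log2 fold change -0.66 ± 0.08 (SE), adjusted p = 2.15e-06), and 0 were higher. Of 32 genes of the Wnt pathway, 3 were lower and 0 higher, and the median log2 fold change was -0.05. The receptor gene Fzd3 was at 0.179, 0.0597 and 0.403 against 2.22, 2.78 and 2.61 CPM (log2 fold change -3.52 ± 0.39 (SE), adjusted p = 2.45e-07) and was also lower against VillinCreERT2 organoids (-2.39, adjusted p = 7.23e-05). Without Cdk8fl/fl/Cdk19-/- replicate 3 the value of Fzd3 against C57BL/6 was -4.34. Apcdd1, a Wnt inhibitor, was lower by a log2 fold change of -0.98, which lost its call without C57BL/6 replicate 2 or without Cdk8fl/fl/Cdk19-/- replicate 2 or 3 (adjusted p = 0.114, 0.100 and 0.0559). Lgr5 is the third. Lfng, Jag2, Apcdd1 and Lgr5 had values of the other sign against VillinCreERT2 organoids (0.07, 0.27, 0.16 and 0.09 on the log2 scale), with none past the fold cutoff. The Paneth-derived ligand Wnt3 was at 5.9, 6.57 and 5.18 against 8.01, 8.22 and 7.9 CPM, with a log2 fold change of -0.45 (adjusted p = 0.0218) inside the fold cutoff. None of 24 proliferation genes, 25 genes of sterol and fatty acid synthesis or 13 mitochondrially encoded genes passed both cutoffs, where 5.17% of all genes did. Of these lists, 0, 4 and 1 genes had an adjusted p under 0.05.

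The counts of the stress and immune lists stand against 5.17% called over all genes. Of 22 NRF2 genes, 2 were higher and 0 lower, Hmox1, heme oxygenase, at 15.4, 15.3 and 16.8 against 5.8, 6.83 and 7.72 CPM (log2 fold change 1.22 ± 0.11 (SE), adjusted p = 2.76e-09) and the cystine transporter gene Slc7a11 (log2 fold change 0.94 ± 0.19 (SE), adjusted p = 0.0011). Both were lower against VillinCreERT2 organoids (-1.05 and -1.54, adjusted p = 3.67e-10 and 6.36e-09). Of 21 immediate early genes, 3 were higher and 0 lower. Atf3, a stress-induced transcription factor, was at 26.4, 30.7 and 25 against 13, 15 and 11.5 CPM (log2 fold change 1.05 ± 0.10 (SE), adjusted p = 3.23e-08), the phosphatase gene Dusp1 had a log2 fold change of 0.77, and Fosl1, one of 1.18, overlapped between the groups and lost its call without C57BL/6 replicate 2 or 3 or Cdk8fl/fl/Cdk19-/- replicate 2 (adjusted p = 0.0671, 0.0731 and 0.0771). Atf3, Dusp1 and Fosl1 had the other sign against VillinCreERT2 organoids (-0.43, -0.23 and -0.77, adjusted p = 3.78e-04, 0.125 and 0.00907), where Fosl1 passed as lower. In that comparison, 0 of the 21 genes were higher and 3 lower, where 10.8% and 7.6% of all genes were. Of 23 interferon-stimulated genes, 3 were higher and 0 lower. They were Oas1a (0.64 on the log2 scale), Ifit2 (1.93) and Oas1g, which had 0 counts in C57BL/6 libraries against 0.357, 0.538 and 0.633 CPM, at least 8.42-fold. Oas1g was lower against VillinCreERT2 organoids (-2.75, adjusted p = 1.50e-08), where Oas1a (-0.36, adjusted p = 0.0158) and Ifit2 (0.47, adjusted p = 0.183) did not pass both cutoffs. Oas1a fell below the fold cutoff without C57BL/6 replicate 2, at 0.54. Of 16 MHC genes, H2-Ab1, a class II chain, was higher (1.19, 1.19 and 1.67 against 0.13, 0 and 0 CPM, a ratio of 33.5-fold (95% counting interval 8.93 to 282)), with all C57BL/6 counts in replicate 1, without which the group was at 0. Of 10 regenerative genes, Ly6a (-1.64), Clu (-2.00) and Msln (-2.59, and -3.44 without Cdk8fl/fl/Cdk19-/- replicate 1) were lower and the growth factor gene Ereg was higher, with 0 counts in C57BL/6 libraries against 1.37, 1.31 and 1.61 CPM, at least 23.6-fold. Against VillinCreERT2 organoids, Clu and Msln were lower too (-1.65 and -3.02, adjusted p = 3.01e-04 and 1.76e-04), Ereg was lower instead of higher (-3.43, 2.71e-06) and Ly6a did not pass (0.45, 0.249). Of 18 p53 targets, Dcxr was lower (log2 fold change -0.62 ± 0.10 (SE), adjusted p = 1.12e-04), which fell below the fold cutoff without C57BL/6 replicate 2 or Cdk8fl/fl/Cdk19-/- replicate 2 (-0.56 and -0.55). Dcxr did not pass against VillinCreERT2 organoids (-0.07, adjusted p = 0.589). There, 9 of the 18 targets were lower and 0 higher, where 7.6% and 10.8% of all genes were, with a median of -0.60.

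**Figure D4:**
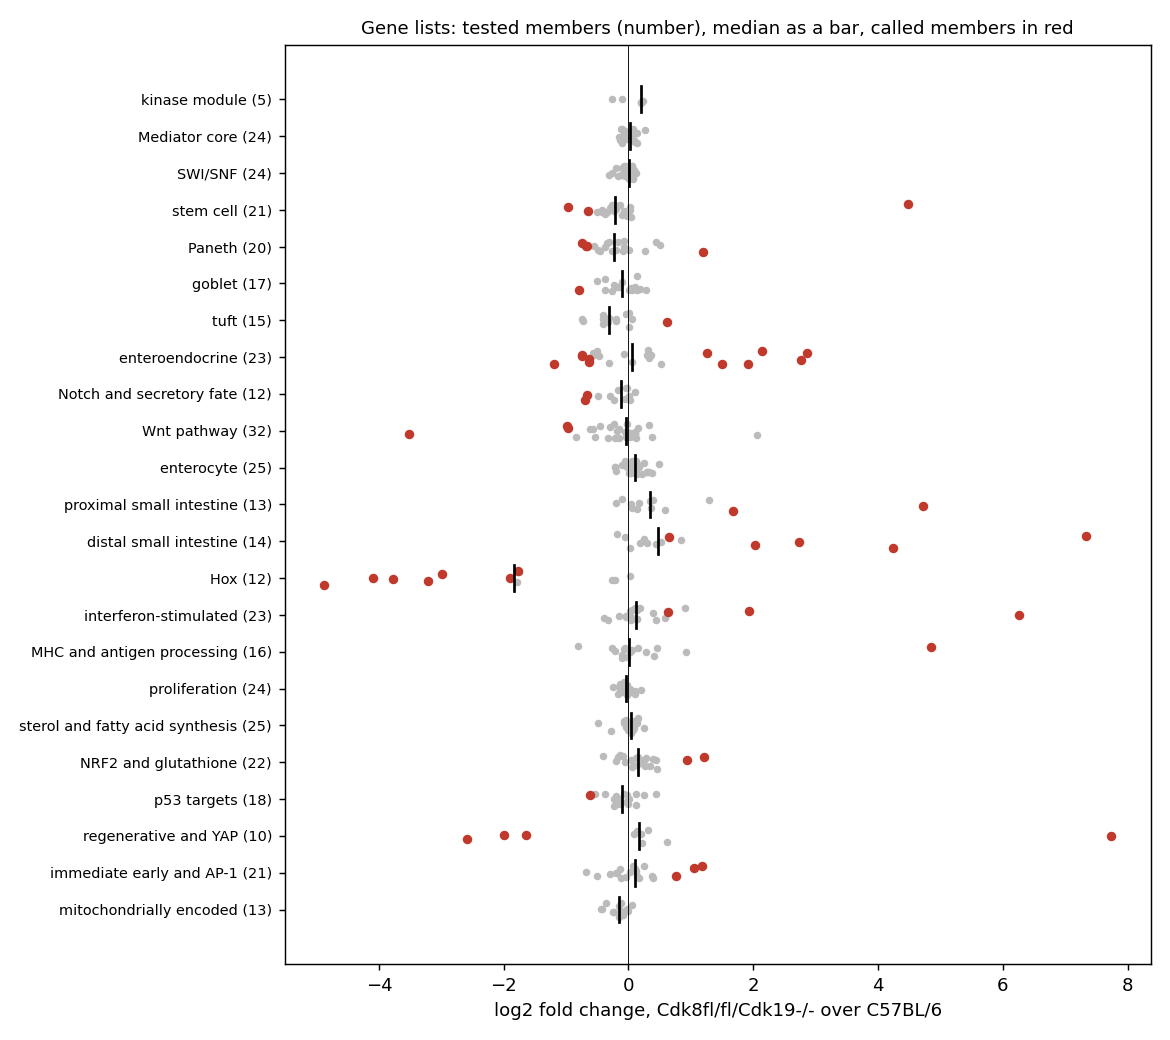
Log2 fold change of Cdk8fl/fl/Cdk19-/- over C57BL/6 organoids (horizontal axis) for the tested members of 23 gene lists (rows, with the number tested), with called members in red, others in grey and the median of each list as a black bar. The Hox list has its median at -1.84, the medians of all other lists lie between -0.32 and 0.48, and enteroendocrine genes stand on both sides of 0.

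The 111 genes that differed in the same direction from both control lines comprised 56 higher and 55 lower. Both comparisons share the Cdk8fl/fl/Cdk19-/- libraries, and the genes named here, from the 8 largest in each direction by the smaller of both changes, were chosen after their values were seen. Fkbp5, a co-chaperone of the glucocorticoid receptor, was at 11.9, 10.9 and 14.5 CPM in Cdk8fl/fl/Cdk19-/- libraries, 32.1, 32.8 and 29.3 CPM in C57BL/6 and 30.8, 30.3 and 31.9 CPM in VillinCreERT2 libraries (log2 fold change -1.33 ± 0.09 (SE), adjusted p = 5.16e-11, and -1.32, adjusted p = 2.62e-11, against VillinCreERT2). Acta1, skeletal muscle actin, was at 19.2, 19.2 and 19.1 CPM against 39.9, 44.7 and 35.3 and 40.0, 40.3 and 36 CPM (log2 fold change -1.06 ± 0.10 (SE), adjusted p = 7.49e-08). Far1, a fatty acyl-CoA reductase of ether lipid synthesis, was at 9.89, 6.09 and 6.79 CPM against 19.9, 17.4 and 17 and 23.4, 20.3 and 19.5 CPM (log2 fold change -1.25 ± 0.14 (SE), adjusted p = 5.77e-07). In each of these 3 genes both control lines lay close together and above every Cdk8fl/fl/Cdk19-/- library. Tnfrsf22 (-1.86), Tubb2b (-1.50, a beta-tubulin), Grk5 (-1.21, a kinase of G protein-coupled receptors) and Glyctk (-0.94, glycerate kinase) were lower than C57BL/6 on the log2 scale, as was Slc15a2.

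On the other side, Fam20a, a pseudokinase of the secretory pathway, was at 41, 47.7 and 43.4 CPM in Cdk8fl/fl/Cdk19-/- libraries against 6.84, 8.75 and 7.31 in C57BL/6 and 16.3, 21.3 and 16.9 in VillinCreERT2 libraries (log2 fold change 2.52 ± 0.10 (SE), adjusted p = 8.40e-16). Cnpy1 was at 7.68, 8.48 and 9.72 against 1.5, 1.74 and 1.37 and 2.29, 1.47 and 1.69 CPM (log2 fold change 2.49 ± 0.26 (SE), adjusted p = 3.28e-07). Gng11, a G protein gamma subunit, was at 3.57, 4.78 and 2.82 against 1.37, 0.869 and 1.31 and 1.85, 1.67 and 1.02 CPM (log2 fold change 1.66 ± 0.25 (SE), adjusted p = 2.53e-05), and Ceacam10 at 7.62, 7.29 and 6.79 against 3.13, 2.66 and 2.67 and 2.48, 2.85 and 2.51 CPM (log2 fold change 1.36 ± 0.15 (SE), adjusted p = 1.22e-07). Every Cdk8fl/fl/Cdk19-/- library stood above every control library for these genes. Defa32 (1.46, an alpha-defensin), Wipf3 (0.98) and Xkr5 (0.91) were higher than C57BL/6 as well, on the log2 scale. In the EtOH-treated Cdk19-/- line of the time course, Fkbp5 ranged from 18.8 to 35.2 CPM, Acta1 from 30.2 to 87.9 CPM and Fam20a from 9.5 to 15.8 CPM, on the scale of another table. Each of these ranges lay outside that of the Cdk8fl/fl/Cdk19-/- libraries, on the side of the control lines. The other genes named here are not given for that line.

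**Figure D5:**
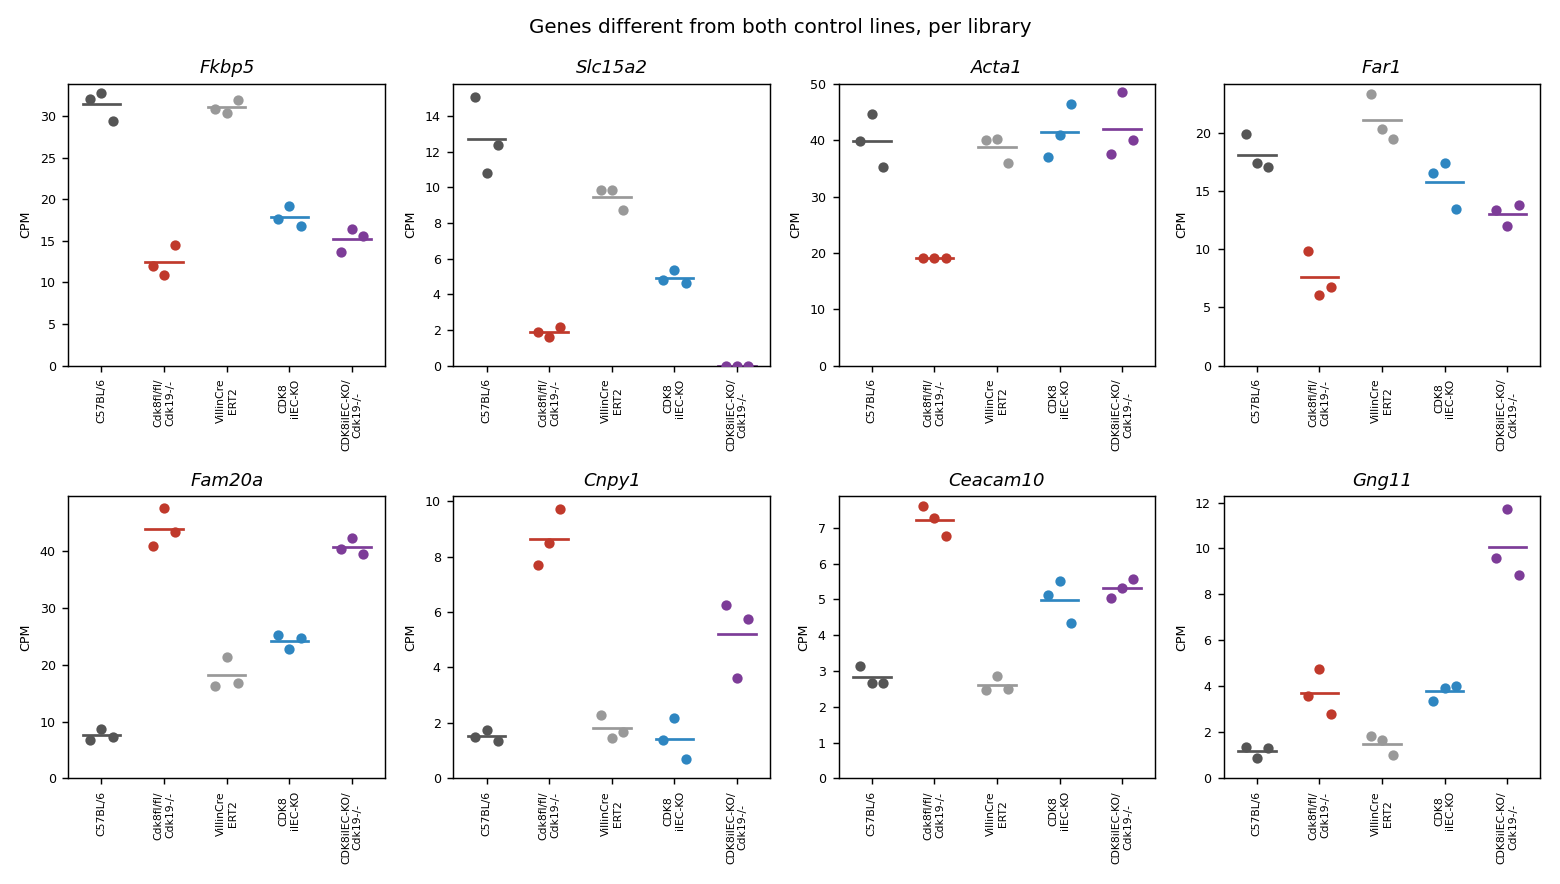
CPM (vertical axes from 0) of 8 genes that differed from both control lines, with 3 points and their mean for each of the 5 day-7 groups. Cdk8fl/fl/Cdk19-/- organoids lie below C57BL/6 and VillinCreERT2 organoids for Fkbp5, Slc15a2, Acta1 and Far1 and above both for Fam20a, Cnpy1, Ceacam10 and Gng11.

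CDK19 loss was set against CDK8 loss to see how many genes both moved. More of the 757 genes went the opposite way after CDK8 loss than the same way, each change being taken against its own control line. CDK8iIEC-KO organoids differed from VillinCreERT2 organoids in 1052 genes (7.18%), 396 higher (2.7%) and 656 lower (4.48%). Of the 757 genes of the CDK19 comparison, 85 passed there in the same direction, 11.2% of one list and 8.08% of the other, and 157 passed in the opposite direction. The change itself differed between the comparisons in 1790 genes (12.2%), with the higher value after CDK19 loss in 994 (6.78%) and after CDK8 loss in 796 (5.43%), and 568 of the 757 genes were among them. CDK8iIEC-KO/Cdk19-/- organoids differed from VillinCreERT2 organoids in 2853 genes (19.5%), 1702 higher (11.6%) and 1151 lower (7.86%). There, 174 of the 757 genes passed in the same direction, 107 higher and 67 lower, which is 23.0% of one list and 6.10% of the other, and 192 passed in the opposite direction, 96 each way. The change differed between combined loss and CDK19 loss in 3066 genes (20.9%), with the higher value after combined loss in 1776 (12.1%) and after CDK19 loss in 1290 (8.8%), and 530 of the 757 genes were among them. The CDK19 comparison shares no library with the other comparisons, whose own control is the VillinCreERT2 line. The difference between both control lines therefore enters the opposite directions and the differences between changes. It cannot be told apart there from the kinase lost. Of the 174 genes, 66 also differed in the same direction when Cdk8fl/fl/Cdk19-/- organoids were set against VillinCreERT2 organoids.

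The comparisons of CDK8 loss and of combined loss share their VillinCreERT2 libraries and are not independent. In all 3 comparisons, 48 genes passed in the same direction, 32 higher and 16 lower. Fkbp5 was lower in each, at 17.6, 19.1 and 16.7 CPM in CDK8iIEC-KO and 13.6, 16.4 and 15.6 CPM in CDK8iIEC-KO/Cdk19-/- libraries (log2 fold changes -0.80 and -1.03, adjusted p = 1.38e-07 and 6.96e-10). Slc15a2 was at 4.81, 5.39 and 4.62 CPM in CDK8iIEC-KO and had 0 counts in every CDK8iIEC-KO/Cdk19-/- library. Mptx1, a pentraxin of Paneth cells, was at 15.1, 18.2 and 17.1 CPM in Cdk8fl/fl/Cdk19-/- against 25, 31.2 and 44 CPM in C57BL/6 libraries (log2 fold change -0.99 ± 0.18 (SE), adjusted p = 0.00131), and at 3.66, 3.76 and 3.54 and 0.511, 0.875 and 0.966 CPM in CDK8iIEC-KO and CDK8iIEC-KO/Cdk19-/- libraries against 14.3, 14.1 and 9.72 CPM in VillinCreERT2 ones. Unlike Fkbp5, Mptx1 did not pass when VillinCreERT2 was the control of CDK19 loss, and its value had the other sign (0.40, adjusted p = 0.0873). Higher in each were Rbp7, a retinol-binding protein (20.1, 18.8 and 18.3 against 7.75, 7.59 and 9.56 CPM, log2 fold change 1.20 ± 0.11 (SE), adjusted p = 3.88e-09), Ceacam10, Parp3 (0.83), Gng11 and the adhesion receptor gene Adgrd1 (1.44). Adgrd1 reached 149.6, 189 and 170.4 CPM in CDK8iIEC-KO/Cdk19-/- libraries, against 14.1, 15.4 and 15 CPM in Cdk8fl/fl/Cdk19-/- and 5.73, 6.14 and 4.46 CPM in C57BL/6 ones. Pm20d1, a secreted enzyme that makes N-acyl amino acids, had the largest smaller change of the rises shared with combined loss, at 11.8, 9.56 and 10.9 against 0.195, 0.463 and 0.238 CPM (log2 fold change 5.12 ± 0.38 (SE), adjusted p = 1.20e-07) and 2.28 after combined loss. Against VillinCreERT2 organoids it did not pass the fold cutoff (-0.46, adjusted p = 0.0371). Among the falls shared with combined loss, Tnfrsf8 (CD30) was at 8.1, 8.42 and 8.4 against 17.7, 15.8 and 19.1 CPM (log2 fold change -1.07 ± 0.11 (SE), adjusted p = 4.44e-08) and had a log2 fold change of -2.03 after combined loss but 0.24 (adjusted p = 0.0944) against the VillinCreERT2 control. Adgrd1 and 1700030C10Rik did not pass there either (0.21 and -0.25, adjusted p = 0.481 and 0.275). The predicted gene 1700030C10Rik was at 3.28, 2.63 and 2.47 against 11.7, 13.3 and 14.6 CPM. The predicted gene 5330426L24Rik was a shared rise, with 1.51 and 2.08.

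Genes around both engineered loci were called about as often as elsewhere. Within 10 Mb of the start of Cdk19 (chromosome 10, 40339564 to 40483818, + strand, GRCm38), 3 of 71 tested genes passed both cutoffs (4.23%), and within 10 Mb of Cdk8 (chromosome 5, 146231230 to 146302874, + strand), 10 of 193 (5.18%). Both shares were near the 5.17% of all genes. Around Cdk19, Mfsd4b2 was at 14.4, 15.8 and 12.5 against 7.17, 6.43 and 7.66 CPM (log2 fold change 1.00 ± 0.13 (SE), adjusted p = 1.69e-06), Ccdc162 was at -1.39 on the log2 scale (adjusted p = 0.00455), and Rnf217, with 0.85, lost its call without C57BL/6 replicate 2 or 3 (adjusted p = 0.0586 and 0.0874). Rnf217 and, near Cdk8, Mtus2 were lower against VillinCreERT2 organoids (-0.94 and -2.24, adjusted p = 2.89e-04 and 2.08e-07). Mfsd4b2, Ccdc162 and Zcwpw1 did not pass there (0.20, 0.37 and -0.36, adjusted p = 0.141, 0.461 and 0.364). Around Cdk8, the named changes were those of 2210417A02Rik (1.79, 2.45 and 1.67 against 0, 0.0579 and 0.0594 CPM, a ratio of 48.6-fold (95% counting interval 13.1 to 406)), Mtus2 (2.44 on the log2 scale, and 3.05 without C57BL/6 replicate 1), Zcwpw1 (-2.09) and Slc29a4 (-0.88, adjusted p = 0.0451). Slc29a4 also lost its call with DESeq2 (adjusted p = 0.0799) and without each of C57BL/6 replicates 1 and 3 and each Cdk8fl/fl/Cdk19-/- library (adjusted p from 0.0604 to 0.174).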

How the data were processed

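Whole-gene read counts of the 7-day organoid table were used as deposited by the authors, who aligned reads with STAR 2.5.2 to mm10 and counted them with featureCounts of Subread 1.6.3 per the submitters' processing notes. Whether counting used strand was not given in the sources used here. Library totals are in the report. The 4184 of 54752 genes on chromosomes X and Y were left out (positions from GENCODE vM21). The 15 day-7 libraries were fitted together in edgeR 4.0.16 (R 4.3.3, limma 3.58.1) with a mean per group, filterByExpr, TMM factors, robust quasi-likelihood and Benjamini-Hochberg adjustment over all genes tested. Genes were called at a fold change over 1.5 with an adjusted p below 0.05, and SE is the size of the log2 fold change divided by the square root of F. The procedure was tested on simulated data.

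Genes at 0 in C57BL/6 organoids were given a lower bound against 3 counts over the group, and those with 1 to 3 counts a ratio with a 95% exact interval, both for counting error only. Named were the 12 largest changes each way among genes with a mean of 50 counts or more in one group (2 predicted genes each way apart), members of 29 gene lists, the 5 largest changes each way shared with CDK8iIEC-KO/Cdk19-/-, and the 5 largest within 10 Mb of each kinase gene. A gene that these rules name is not reported here. The comparison and the lists were chosen with earlier results of these data known. Deviations of libraries with equal replicate numbers correlated at 0.165, 0 and -0.049 for numbers 1 to 3, so the numbers did not pair them, and no block was used. Alternatives covered filters, normalization, DESeq2 1.42.0, limma-voom, the control line, the replicate block and leaving out each library. The EtOH-treated libraries were normalized in their own table and only described, and the other tables were not used here.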

Additional observations from a re-analysis of the deposited data

Results flagged for a closer look

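For 18 named genes, the changes after CDK19 loss (against C57BL/6 organoids) and after CDK8 loss (against VillinCreERT2 organoids) passed both cutoffs in opposite directions. They are among 157 of the 757 genes that did so. The difference between the changes passed too, which this choice of genes nearly fixes in advance. It also holds the difference between both control lines, which cannot be told apart from the kinase lost. With VillinCreERT2 organoids as the control of CDK19 loss, the changes of the 18 genes had the other sign, except those of Smoc1 and Ctrb1, which did not pass. The values in parentheses are the CDK19 change minus the CDK8 change on the log2 scale. It was positive for Fabp6 (12.34), Ereg (9.56), Smoc1 (7.79), Oas1g (7.35), Tmigd1 (7.09), Cubn (6.86), Slc10a2 (6.63), Cybrd1 (6.11), Pyy (3.96), Mtus2 (3.92), Slc40a1 (2.65), Hmox1 (1.97), Ghrl (1.93), Guca2a (1.92) and Atf3 (1.79). It was negative for Khdc1a (-3.55), Wdfy1 (-2.73) and Ctrb1 (-2.14). Fabp6, Slc10a2, Tmigd1, Cubn and Guca2a belong to the distal intestinal list, and Cybrd1 and Slc40a1 to the proximal one. Ereg and Oas1g had 0 counts in C57BL/6 organoids, so their differences depend on the prior count of the fit. Smoc1 had counts in C57BL/6 replicate 2 only, and without it the log2 fold change of Smoc1 after CDK19 loss went from 6.12 to 9.45. Of these 18 genes, Ctrb1 is a pancreatic acinar gene and Wdfy1 is on the list of differences between C57BL/6 substrains.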

How the results depend on the processing

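The count of 757 genes (419 higher, 338 lower) was 824 with no filter on low counts, 513 with at least 10 counts in every library of both groups (245 higher, 268 lower), 769 with upper quartile factors, 682 with DESeq2, 750 with limma-voom, 687 with only the compared groups fitted and 286 (196 higher, 90 lower) when tested against the fold of 1.5 itself. Without each library in turn it ranged from 616 (without C57BL/6 replicate 3) to 793, with 344 to 427 higher and 272 to 366 lower. Over the same omissions, 1672 to 1944 genes differed from CDK8 loss (907 to 1029 higher, 765 to 915 lower), 2828 to 3226 from combined loss (1669 to 1841 higher, 1159 to 1385 lower), and 157 to 190 were shared with combined loss. With the replicate block 767 genes passed, 745 of them among the 757, and the call of Slc29a4 was lost (adjusted p = 0.0513). No other call of the 104 named genes changed with the block. With VillinCreERT2 organoids as the control 2696 genes passed (1582 higher, 1114 lower), and with the mean of both controls 761, of which 306 had passed in the same direction and 8 in the opposite one. The share within 10 Mb of Cdk19 was 2.53% with no filter and 19.7% with the VillinCreERT2 control, and that around Cdk8 was 3.25% and 20.7%, where 824 of 28405 genes and 18.4% of genes passed over the whole genome off X and Y. List medians moved by more than the spread between libraries in 27 of 29 lists with the VillinCreERT2 control, in 20 with the mean of both controls, and in 0 to 5 under each other alternative, leaving out a library included. Of 1625 values of named genes under these alternatives, 1459 kept their direction and side of the cutoffs, 97 lost their call and 67 changed sign, all 67 with another control, and the other 2 were those of Cdk8, which was not called and moved by more than the spread between libraries with either change of control. Log2 fold changes that changed sign with the VillinCreERT2 control were those of Ereg (-3.43), Oas1g (-2.75), Tmigd1 (-2.63), Fabp6 (-2.41), Cubn (-2.33), Mtus2 (-2.24), Cybrd1 (-2.23), Slc7a11 (-1.54), Pyy (-1.37), Sst (-1.35), Ghrl (-1.14), Rps4l (-1.09), Hmox1 (-1.05), Fut4 (-1.00), Slc40a1 (-0.98), Rnf217 (-0.94), Scg2 (-0.89), Slc10a2 (-0.83), Guca2a (-0.80), Fosl1 (-0.77), H2-Ab1 (-0.61), Igsf9b (-0.52), Pm20d1 (-0.46), Atf3 (-0.43), Gcg (-0.39), Oas1a (-0.36), Mmp14 (-0.35), Scg3 (-0.32), Dusp1 (-0.23), Igfbp4 (-0.15), Arl14ep (-0.0637), Lfng (0.0684), Lgr5 (0.0928), Epha7 (0.13), Apcdd1 (0.16), Galnt12 (0.16), Tnfrsf8 (0.24), Jag2 (0.27), Ccdc162 (0.37), Hoxb5 (0.37), Mptx1 (0.40), Fev (0.45), Ly6a (0.45), Neurog3 (0.50), Dmrta2 (0.53), Rfx6 (0.59), 1700007E05Rik (0.64), Pnliprp2 (0.67), Tph1 (1.07), Pax4 (1.24), Lyz1 (1.25), Defa30 (1.27), Wdfy1 (1.57), Nefh (1.62), Gm42031 (1.63) and Khdc1a (3.33). With the mean of both controls they were those of Slc7a11 (-0.30), Cubn (-0.15), Guca2a (-0.0783), Rnf217 (-0.0441), Pnliprp2 (0.0038), Pax4 (0.0218), Tph1 (0.16), Lyz1 (0.25), Defa30 (0.29), Wdfy1 (0.44) and Khdc1a (0.49). The cause was not tested. At low counts, depth limits the size of the change: 319 of the 757 genes averaged under 50 counts in the higher group.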
